A study of Mus musculus with 20 samples.

Results

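The genes described here are 43 mouse genes of the type I interferon response. They were chosen by name for their known place in that response, with earlier results of these data known. All 43 were found among the 55291 gene symbols of the deposited count table, and all 43 passed the filter on low counts in each fit. RNA-seq was run on the left hemi-brains of mice labelled female, at 18 MO, with 1 mouse per library and 5 libraries per group. The mice were targeted replacement animals on a C57BL/6 background, in which human APOE2, APOE3 or APOE4 stands in place of mouse Apoe under the mouse promoter and is carried on both alleles. The fourth group is named APOE4D, its genotype is labelled APOE4, and what the D stands for was not found in the sources read. No group carried mouse Apoe, so each comparison is between mice with human alleles. Libraries are given below in 1 order: APOE2 mice FH124, F74M, F42N, FH111 and F35J, APOE3 mice F61N, F37N, F39N, F10N and F64M, APOE4 mice F95K, F78N, F58M, FH78 and FH66, and APOE4D mice F12M, FH85, FH68, F19M and FH51. The question was whether the interferon response genes differ between the human APOE alleles in the aged hemi-brain.

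Type I interferons are secreted proteins that cells make when they sense nucleic acid of a virus, or their own nucleic acid out of place. They bind the receptor of Ifnar1 and Ifnar2, whose kinases Jak1 and Tyk2 activate Stat2, which joins Irf9 in the ISGF3 complex. ISGF3 binds the interferon-stimulated response element (ISRE) in the promoters of interferon-stimulated genes, whose products sense, cut or trap viral RNA, tag proteins with Isg15, or damp the signal. In the brain, microglia, endothelial cells, astrocytes and neurons can all respond, and a low level of the response is known to rise with age.

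The libraries held 32404258 to 51960932 reads assigned to genes. Levels are given as CPM, the reads of a gene relative to a library total scaled by TMM. CPM is not divided by gene length, so it was compared between libraries and not between genes. Each library is 1 mouse, so the spread is between mice. The labels call every mouse female. The APOE3 library of mouse F61N had 48 reads of Xist, against 12151 to 24959 in the other 19 libraries, so its label is in doubt. The member calls that change without F61N are given with and without it. In bulk hemi-brain RNA, fewer cells of a type and less RNA per cell cannot be told apart. Libraries were made with a stranded kit, but no source read here says whether strand was used in counting. Of the 43 members, 13 overlap another gene of the annotation, among them the pair Ifi27 and Ifi27l2a and the pair Parp9 and Dtx3l, and their counts are less certain for that reason. Ifit3 and Ifit3b, and the Oas1 genes, are close copies between which short reads may be split.

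As a check on the label, the promoters of the members (RefSeq, GRCm38.p6, from 250 bases before to 50 after each listed start) were searched on both strands for the ISRE core, taken as GAAA, any 2 bases and GAAA again. Of the 31 members with a listed promoter, 15 (48.4%) held it, against 3.66% of the 14024 tested genes with a promoter. A longer form, the same core followed by CT, stood in 9 of the 31 (29%) and in 0.378% of the tested genes. The core of the gamma-activated sequence, TTCNNNGAA, stood in 6 of the 31 (19.4%) and in 8.36% of the tested genes. The windows below are those of the 5 members that were lower in APOE2 in a comparison and held the core before a listed start, of Isg15, a classical interferon-stimulated gene, and of Stat2, which holds the core and differed little between groups. Capitals mark the ISRE core on either strand, and each sequence reads along the strand of its gene.
Ddx60: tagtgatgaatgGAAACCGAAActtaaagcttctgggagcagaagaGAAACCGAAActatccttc
Rsad2: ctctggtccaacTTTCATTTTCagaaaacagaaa
Ifit3: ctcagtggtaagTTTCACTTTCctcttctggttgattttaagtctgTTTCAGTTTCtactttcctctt
Ifit3b: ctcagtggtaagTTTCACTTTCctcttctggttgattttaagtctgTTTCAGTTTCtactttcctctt
Trim30a: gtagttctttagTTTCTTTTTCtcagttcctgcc
Isg15: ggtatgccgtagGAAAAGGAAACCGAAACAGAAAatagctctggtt
Stat2: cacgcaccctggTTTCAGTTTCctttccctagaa
These windows lie at chr8:61928022-61928086, plus strand for Ddx60, chr12:26456551-26456584, minus strand for Rsad2, chr19:34583361-34583428, plus strand for Ifit3, chr19:34607757-34607824, plus strand for Ifit3b, chr7:104465208-104465241, minus strand for Trim30a, chr4:156200863-156200908, minus strand for Isg15 and chr10:128270264-128270297, plus strand for Stat2. The printed stretches of Ifit3 and Ifit3b are the same letter for letter. In Isg15, 3 cores overlap in a single run. A match is a stretch of letters and not a shown binding site.

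The mean level over the 20 libraries ran from 0.16 CPM (Oas3) to 48.2 CPM (Ifi27). The 3 with the highest mean CPM were Ifi27, a mitochondrial membrane protein, Stat2, and Lgals3bp, a secreted galectin-binding glycoprotein. Ifi27 was at 41.4 ± 3.24 CPM in the APOE2 mice, 51.5 ± 9.07 in those with APOE3, 50.7 ± 5.21 with APOE4 and 49.4 ± 7.56 with APOE4D (mean ± SD of 5 mice, as for every mean below). Lgals3bp was at 20.4 ± 1.89, 29.4 ± 6.998, 29.2 ± 5.01 and 27.2 ± 5.82 CPM in the same order. APOE2 had the lowest mean of the 4 groups in 40 of the 43 members. The exceptions were Xaf1 and Cmpk2, in which APOE2 had the highest mean, and Irf9.

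The members varied between mice more than the median gene did. Their median SD within groups was 0.343 on the log2 scale, against 0.134 over the 21041 genes kept. Averaged over the 43 members, as log2 CPM minus each gene's mean, the APOE2 libraries stood at -0.369 ± 0.167, with a range of -0.588 to -0.223. APOE3 stood at 0.115 ± 0.387 and held both high and low libraries, with F37N at 0.554, F10N at 0.505 and F61N at -0.281. APOE4 stood at 0.151 ± 0.107, with a range of 0.067 to 0.335, and APOE4D at 0.103 ± 0.256, with its highest library FH85 at 0.46. The APOE2 range lay below the whole ranges of APOE4 and APOE4D, while the APOE3 library F61N lay within it. F37N was the highest of the 20 libraries in 14 members and F10N in 11, and F42N was the lowest of the 20 in 17 members and F74M in 14. These averages are a description, with no test, since the members share their libraries.

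**Figure D1:**
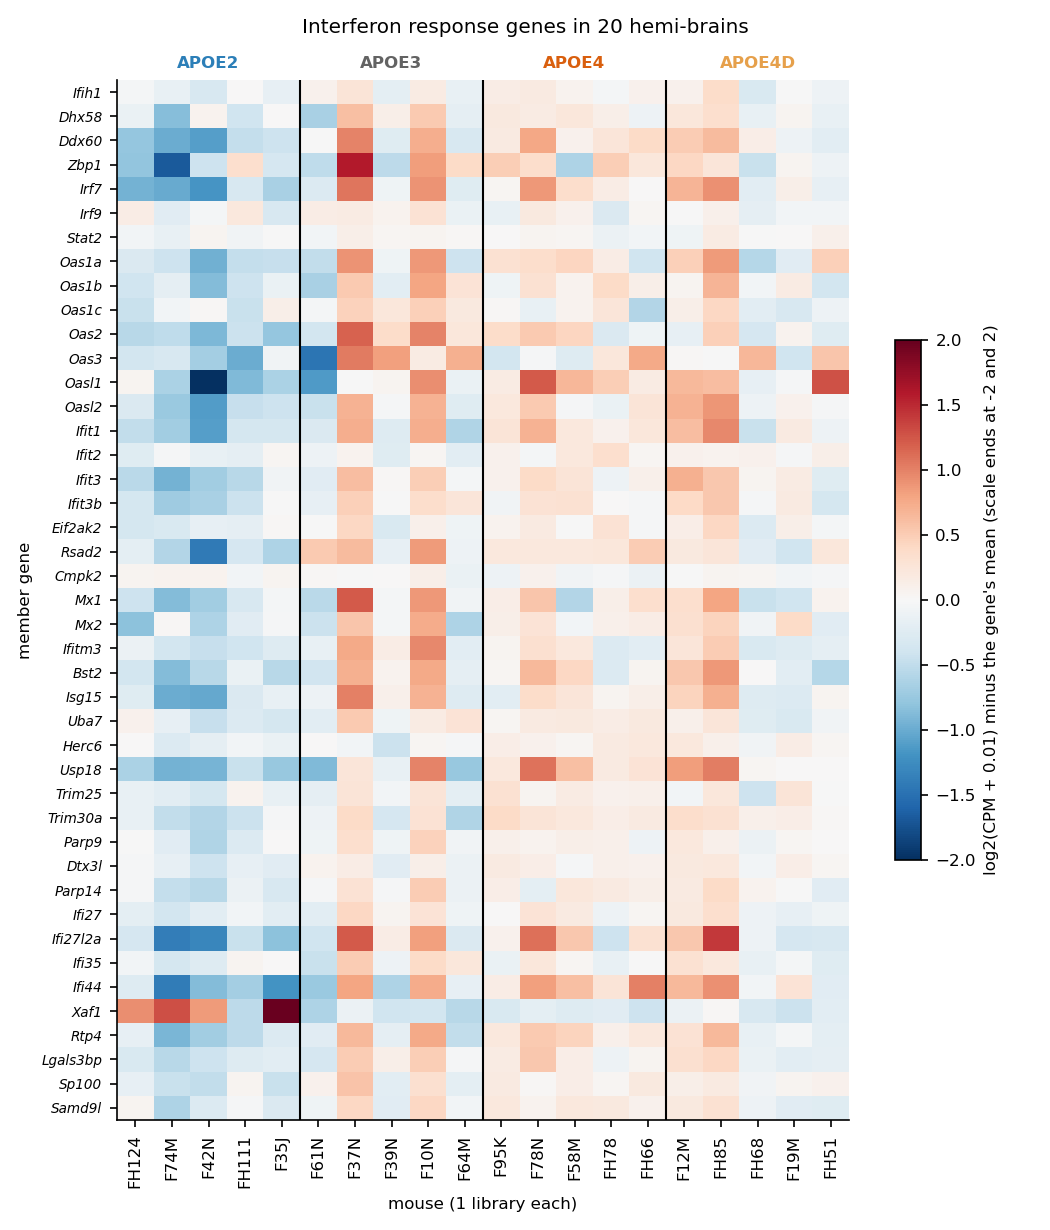
Each row is 1 of the 43 members and each column 1 of the 20 libraries, labelled by mouse, and colour shows log2(CPM + 0.01) minus the mean of the gene. The columns of F37N and F10N are mostly red and those of F74M and F42N mostly blue, while the Xaf1 row is red in 4 of the 5 APOE2 libraries.

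**Figure D2:**
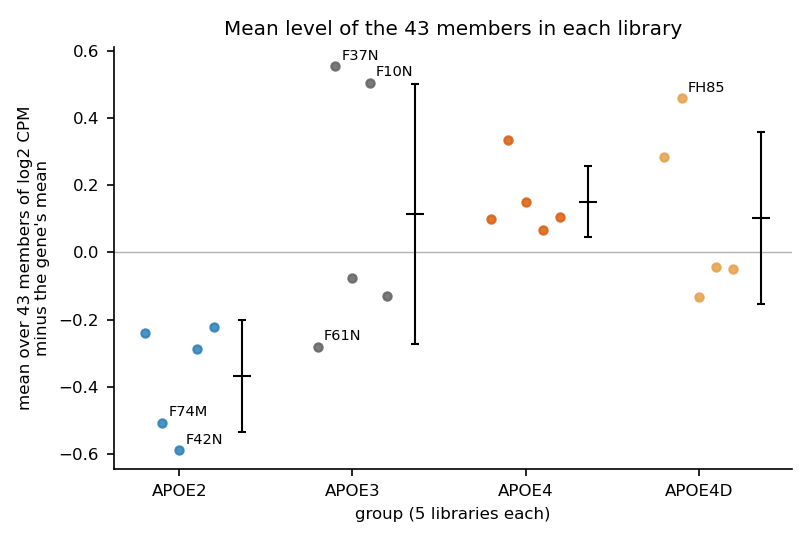
Points are libraries, by group, and the vertical axis is the mean over the 43 members of log2 CPM minus the mean of each gene. Bars show the group mean and SD (n = 5). The APOE2 points run from -0.588 to -0.223, and the APOE3 points from -0.281 to 0.554.

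APOE2 was compared with APOE3, with APOE4 and with APOE4D. The 3 comparisons share the 5 APOE2 libraries and are not independent, and their values are set side by side for that reason. Since the members were chosen with earlier results of these data known, the counts and shares below are descriptions. Against APOE3, 7 of the 43 members (16.3%) were lower and 1 was higher at an adjusted p under 0.05 from edgeR's quasi-likelihood test, where 3.05% of all genes tested were lower and 1.84% higher. Against APOE4, 7 members were lower (16.3%, against 2.6% of all genes) and 1 higher (against 3.29%). Against APOE4D, 6 members were lower (14%, against 2.26% of all genes) and 1 higher (against 1.86%). The median log2 fold change of the 43 members was -0.53, -0.51 and -0.50 in the 3 comparisons, beside medians of 0.002, 0.003 and 0 over all genes tested. The sign was negative in 41, 41 and 40 members, and the unadjusted p was under 0.05 in 32, 31 and 29. Every APOE2 library lay below every library of the other group in 4 members against APOE3 (9.3%, against 2.73% of all genes), 15 against APOE4 (34.9%, against 3.65%) and 8 against APOE4D (18.6%, against 2.92%). In all, 12 members were called lower in at least 1 of the comparisons, and the 1 member called higher was the same in each, Xaf1.

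These counts depended on which APOE3 mice were in the fit. Without F61N, 23 members were lower in APOE2 than in APOE3 and 1 was higher, while the calls over all genes went from 642 to 1110 lower and from 387 to 1423 higher. Without F37N and F10N together, left out after their high values were seen, 1 member was lower (Oas2) and none was higher, and the median log2 fold change was -0.20. In that fit 309 of all genes were lower and 155 higher. The other tools and single libraries moved the counts as well, from 3 to 24 members against APOE3, 3 to 12 against APOE4 and 1 to 7 against APOE4D when 1 library was left out at a time, while DESeq2 called 19, 22 and 13. Over all genes DESeq2 called 1472, 1577 and 1079 in the same comparisons, against 1029, 1238 and 867 by edgeR.

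**Figure D3:**
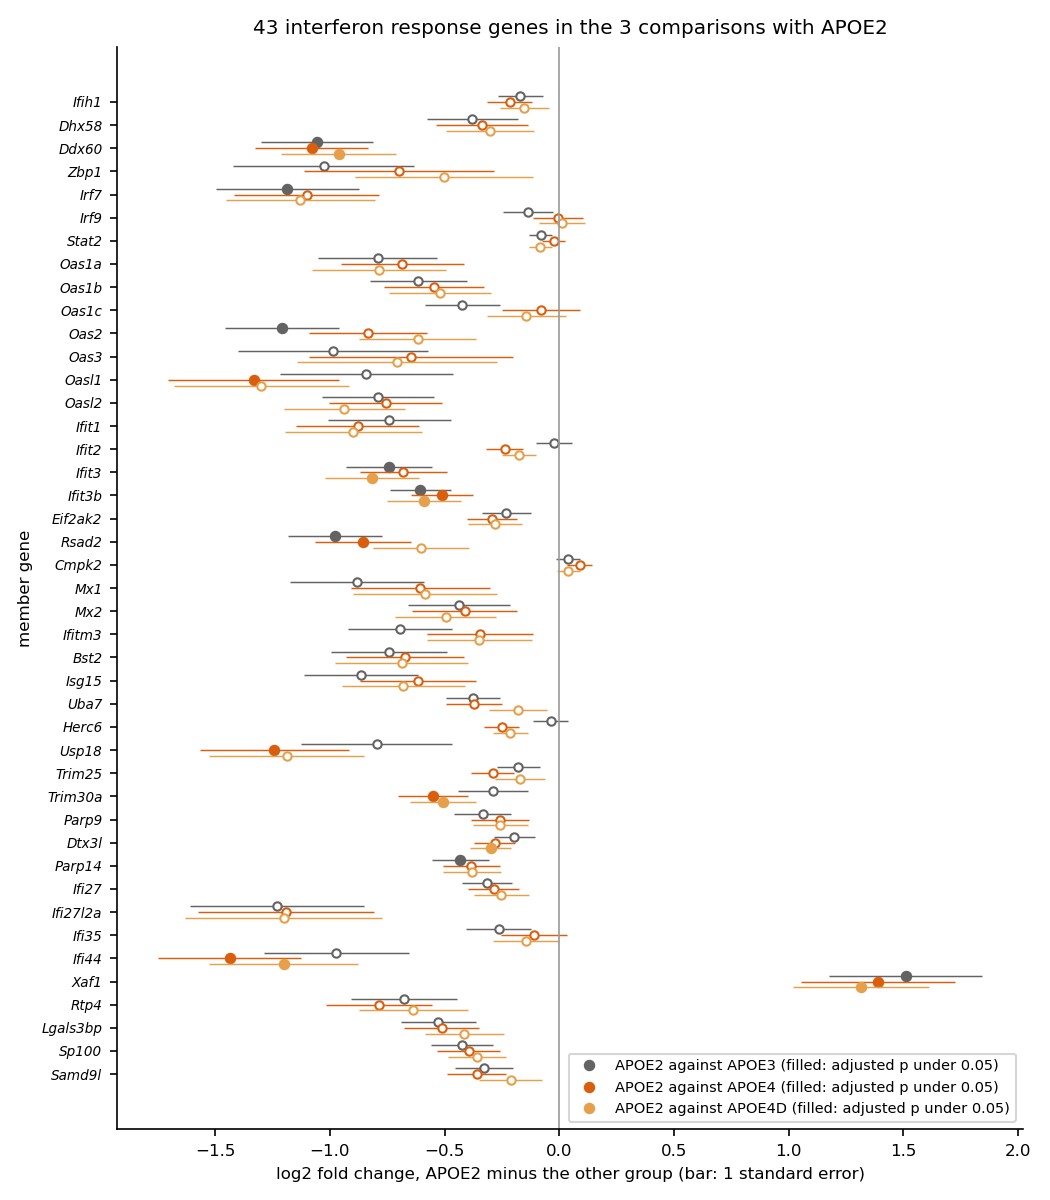
Points give the log2 fold change of each of the 43 members in APOE2 against APOE3, APOE4 and APOE4D, bars 1 standard error, and filled points an adjusted p under 0.05. Nearly all points lie left of 0, with medians of -0.53, -0.51 and -0.50, and Xaf1 is the only filled point to the right of 0.

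Of the 4 sensors, Ddx60 was lower in APOE2 in each of the comparisons. Ddx60 is an RNA helicase that takes part in RIG-I signalling (chromosome 8, 61928073 to 62037704 of GRCm38, the build of every position below). It was at 1.08, 0.934, 0.863, 1.33 and 1.396 CPM in the APOE2 mice, 1.86, 3.696, 1.57, 3.09 and 1.48 in those with APOE3, 2.102, 3.197, 1.98, 2.196 and 2.42 with APOE4 and 2.65, 2.88, 2.05, 1.73 and 1.61 with APOE4D. The highest APOE2 library was below the lowest library of each other group. The difference from APOE3 had a log2 fold change of -1.06 with an SE of 0.24 and an adjusted p of 0.0153 from edgeR, that from APOE4 a log2 fold change of -1.08 (adjusted p = 0.0126) and that from APOE4D one of -0.96 (adjusted p = 0.0287). Against APOE3 the call was lost without F74M (adjusted p = 0.0528). Against APOE4 it held without any single library, and against APOE4D it was lost without any 1 of FH124, F74M, F42N, F12M, FH85 and FH68 (adjusted p from 0.0515 to 0.0866). The other sensors were Ifih1 and Dhx58, which bind double-stranded RNA, and Zbp1, which binds left-handed Z-form nucleic acid. None of these passed the test, with log2 fold changes of -0.17, -0.38 and -1.03 against APOE3. Without F61N, Dhx58 and Zbp1 passed it against APOE3 (adjusted p = 0.0498 and 0.0442).

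Among the 3 transcription factors, Irf7 stood apart from Stat2 and Irf9. Irf7 is the factor that amplifies interferon production and is itself induced by interferon (chromosome 7, 141263183 to 141266499). It was at 2.14, 2.03, 1.81, 3.28 and 2.605 CPM in the APOE2 mice, 3.38, 8.65, 3.88, 7.66 and 3.46 in those with APOE3, 4.23, 7.53, 5.24, 4.54 and 4.13 with APOE4 and 6.58, 7.74, 3.54, 4.48 and 3.69 with APOE4D, so that no APOE2 library reached the lowest of the others. In APOE3 it was highest in F37N and F10N, the mice in which most members were highest. It was lower in APOE2 than in APOE3 (log2 fold change of -1.19 with an SE of 0.31 and an adjusted p of 0.0478, edgeR), a call lost without any 1 of FH124, F74M, F42N, F35J, F37N, F39N and F10N (adjusted p from 0.0581 to 0.121). Against APOE4 its log2 fold change was -1.10 (adjusted p = 0.0624) and against APOE4D -1.13 (adjusted p = 0.0648). Neither passed by edgeR with all libraries. DESeq2 called Irf7 in both (adjusted p = 0.0079 and 0.0106), as did the edgeR fits of only the 2 groups (adjusted p = 0.003 and 0.0385). Against APOE3 the call held under 6 of 19 alternatives. Stat2, at 29.4 ± 1.52 CPM in APOE2 and 31.1 ± 1.33 in APOE3, and Irf9, at 15.3 ± 2.46 and 16.9 ± 1.79, differed by log2 fold changes of -0.08 and -0.14.

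The 7 members of the OAS family, which make or resemble the enzymes that make oligoadenylate to activate RNase L, all had negative log2 fold changes in each comparison with APOE2. Their medians were -0.79, -0.68 and -0.71 against APOE3, APOE4 and APOE4D. Oas2 (chromosome 5, 120730333 to 120749886) was at 1.48, 1.54, 1.17, 1.63 and 1.28 CPM in APOE2 and 1.69, 5.004, 2.83, 4.36 and 2.55 in APOE3, with the lowest APOE3 library, F61N, just above the highest APOE2 library. The APOE4 libraries were at 2.83, 3.17, 2.96, 1.797 and 2.05 and the APOE4D libraries at 1.96, 3.06, 1.73, 2.31 and 1.86. Against APOE3 the difference had a log2 fold change of -1.21 with an SE of 0.25 and an adjusted p of 0.0085, and it held without any single library. Against APOE4 and APOE4D, Oas2 had log2 fold changes of -0.83 and -0.62 and did not pass the test (adjusted p = 0.0704 and 0.223, edgeR). DESeq2 called it against APOE4 (adjusted p = 0.0342) and not against APOE4D. The edgeR fits of only the 2 groups called it in both (adjusted p = 0.00213 and 0.0348). Oasl1, a relative that lacks the enzyme's activity and restrains the translation of Irf7 in mice (chromosome 5, 114923143 to 114937911), was at 0.495, 0.304, 0.0664, 0.253 and 0.302 CPM in APOE2 and 0.532, 1.13, 0.762, 0.674 and 0.535 in APOE4. Its APOE2 libraries lay below all of the APOE4 libraries (log2 fold change of -1.33 with an SE of 0.37 and an adjusted p of 0.0345), but the call was lost without any 1 of F74M, F42N, FH111, F35J, F78N, F58M and FH78 (adjusted p from 0.0584 to 0.0947). Against APOE4D, Oasl1 had a log2 fold change of -1.30 (adjusted p = 0.0517, edgeR). DESeq2 and the edgeR fit of only APOE2 and APOE4D called it there (adjusted p = 0.0147 and 0.0488). Against APOE3, Oasl1 did not pass the edgeR test (-0.84, adjusted p = 0.216). Oas1a, Oas1b, Oas1c, Oas3 and Oasl2 were not called by edgeR with all libraries in the fit, and Oas1b is annotated as a transcribed pseudogene. Without F61N, edgeR called Oas1a, Oas1b, Oas3 and Oasl2 lower in APOE2 than in APOE3 (adjusted p = 0.0164, 0.0112, 0.0358 and 0.0241). DESeq2 called Oas1a against APOE3 (adjusted p = 0.0467) and Oasl2 against APOE3, APOE4 and APOE4D (adjusted p = 0.0222, 0.0281 and 0.00978).

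The effectors that bind RNA or alter nucleotides held 3 members lower in APOE2 than in APOE3. Rsad2, also called viperin, makes a nucleotide analogue that ends viral RNA chains (chromosome 12, 26442743 to 26456452), and its promoter holds a single ISRE core among the windows above. It was at 2.18, 1.66, 0.9297, 1.98 and 1.63 CPM in the APOE2 mice, 3.597, 3.88, 2.22, 4.53 and 2.33 in those with APOE3, 2.89, 2.91, 2.896, 2.92 and 3.55 with APOE4 and 2.87, 2.94, 2.13, 1.895 and 2.93 with APOE4D. The APOE2 libraries were below all APOE3 and all APOE4 libraries and overlapped those of APOE4D. The difference from APOE3 passed the edgeR test (log2 fold change of -0.98 with an SE of 0.20 and an adjusted p of 0.00647). That from APOE4 passed it too (log2 fold change of -0.86 with an SE of 0.21 and an adjusted p of 0.0171). The call against APOE4 was lost without FH66 (adjusted p = 0.0535). Against APOE4D, Rsad2 did not pass the edgeR test (-0.60, adjusted p = 0.117), while DESeq2 called it (adjusted p = 0.0483).

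Ifit3 and Ifit3b, neighbours on chromosome 19 (34583119 to 34588982 and 34607530 to 34613403), encode proteins that join Ifit1 in holding foreign RNA. Ifit3b was lower in APOE2 in each of the comparisons. It was at 4.99, 3.88, 4.05, 4.73 and 6.35 CPM in the APOE2 mice, 5.67, 8.903, 6.35, 8.12 and 7.49 in those with APOE3, 6.05, 7.82, 7.86, 6.39 and 6.27 with APOE4 and 8.41, 9.24, 6.25, 7.25 and 4.98 with APOE4D, and the APOE2 library F35J lay above the lowest library of each other group, as did FH124 for APOE4D. Its log2 fold changes were -0.61 (SE 0.13, adjusted p = 0.00929), -0.51 (adjusted p = 0.0275) and -0.59 (adjusted p = 0.0392) by edgeR. The first held without any single library. The second was lost without any 1 of F74M, F42N, F78N and F58M (adjusted p from 0.0596 to 0.0794) and the third without any 1 of FH124, F74M, F42N, FH111, F12M, FH85 and F19M (adjusted p from 0.0757 to 0.118).

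Ifit3 also had its lowest mean in APOE2. It was at 8.07, 6.096, 7.19, 7.95 and 11.1 CPM in the APOE2 mice, 9.99, 17.9, 11.9, 16.4 and 11.4 in those with APOE3, 12.4, 15.3, 13.96, 10.9 and 12.5 with APOE4 and 19.1, 17, 12.1, 13.1 and 9.93 with APOE4D, again with F35J within the range of each other group. It was lower in APOE2 than in APOE3 (log2 fold change of -0.74 with an SE of 0.19 and an adjusted p of 0.0365) and than in APOE4D (log2 fold change of -0.82 with an SE of 0.21 and an adjusted p of 0.0318), and against APOE4 it had a log2 fold change of -0.68 (adjusted p = 0.0521, edgeR). DESeq2 and the edgeR fit of only APOE2 and APOE4 called it against APOE4 (adjusted p = 0.0103 and 0.0175). Against APOE3 the call was lost without any 1 of FH124, F74M, F42N, FH111, F37N, F39N and F10N (adjusted p from 0.055 to 0.0939). Against APOE4D it was lost without any 1 of FH124, F74M, F42N, FH111, F12M, FH85 and F19M (adjusted p from 0.0541 to 0.097). Ifit1, which binds RNA that lacks the host's cap methylation, was at 3.204 ± 0.644 CPM in APOE2 and 5.36 ± 2.34 in APOE3, Ifit2, its partner, at 11.1 ± 0.886 and 11.3 ± 1.14, and Eif2ak2, the kinase PKR, at 6.95 ± 0.715 and 8.17 ± 1.56. None of these passed the edgeR test with all libraries in a comparison with APOE2. Every APOE2 library of Ifit1 lay below every APOE4 library (log2 fold change of -0.88, adjusted p = 0.0779). DESeq2 called Ifit1 against APOE4 and APOE4D (adjusted p = 0.0192 and 0.0448) but not against APOE3. The edgeR fit of only APOE2 and APOE4 called Ifit1 and Eif2ak2 (adjusted p = 0.000529 and 0.0347). With APOE4 and APOE4D joined, edgeR called Ifit2 (adjusted p = 0.0448). Cmpk2, a mitochondrial nucleotide kinase that lies next to Rsad2 on chromosome 12 (26469117 to 26479837), had the smallest spread of the members, with an SD within groups of 0.071 on the log2 scale. It ran from 25.01 to 27.4 CPM in APOE2 and 23.7 to 28.3 CPM in the other 15 libraries, and its log2 fold changes in the comparisons with APOE2 were 0.04, 0.09 and 0.04, so it did not differ as its neighbour did.

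**Figure D4:**
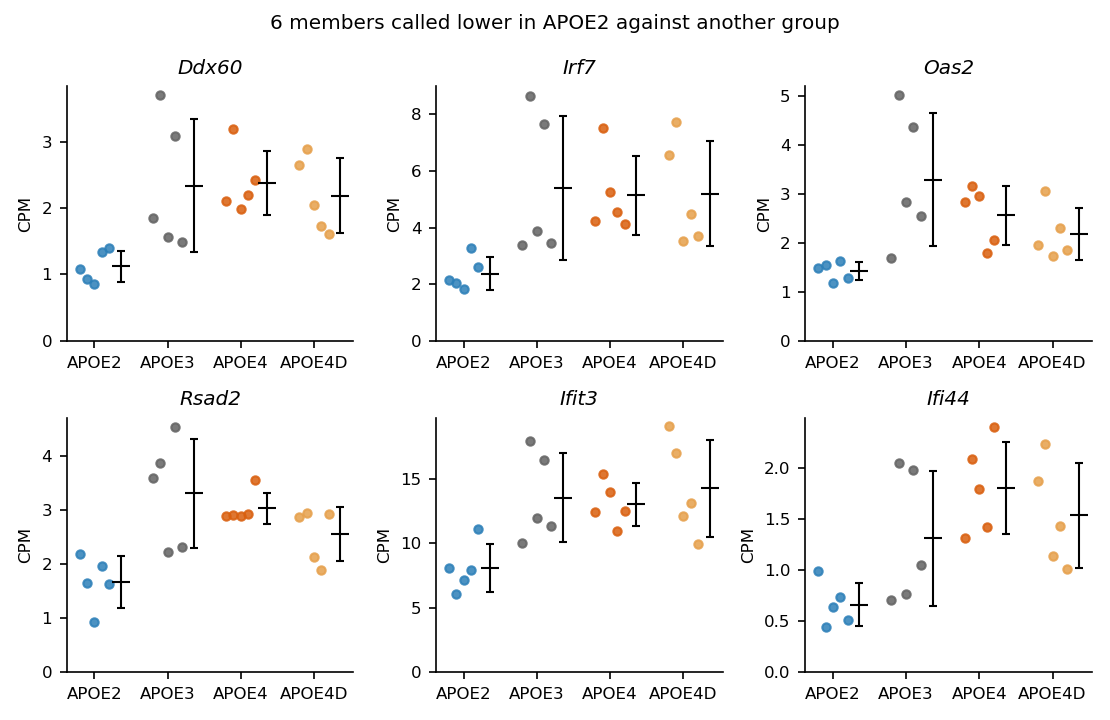
CPM of Ddx60, Irf7, Oas2, Rsad2, Ifit3 and Ifi44 in each library, by group, with bars for the mean and SD (n = 5) and axes that start at 0. In Ddx60 the APOE2 points lie below all others, and in the APOE3 columns of most panels F37N and F10N form an upper pair.

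None of the 4 effectors of virus entry, budding and transport passed the edgeR test in a comparison with APOE2 when all libraries were fitted. Without F61N, Bst2, Ifitm3 and Mx1 were lower in APOE2 than in APOE3 (adjusted p = 0.0381, 0.0383 and 0.0137), and DESeq2 called Bst2 and Ifitm3 with all libraries (adjusted p = 0.0472 and 0.0338). Their log2 fold changes against APOE3 lay between -0.88 and -0.44, and those against APOE4 between -0.67 and -0.35. Ifitm3, which blocks fusion of viruses in endosomes, was at 16.8, 13.99, 13.2, 13.7 and 15.1 CPM in APOE2 and 16.3, 30.7, 20.02, 35.2 and 15.6 in APOE3, with F61N and F64M within the APOE2 range (adjusted p = 0.107, edgeR). Bst2, or tetherin, holds budding virions at the cell surface and was at 5.201 ± 0.979 and 8.703 ± 3.14 CPM (adjusted p = 0.12). Mx1 and Mx2, dynamin-like GTPases in most mammals, are annotated here as transcribed pseudogenes.

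The 6 members that attach or remove Isg15 or ubiquitin held 2 that were lower in APOE2 than in APOE4. Usp18 removes Isg15 from proteins and blocks signalling at Ifnar2 (chromosome 6, 121245906 to 121270917). It was at 1.39, 1.12, 1.13, 1.58 and 1.28 CPM in the APOE2 mice, 1.18, 2.57, 1.95, 4.32 and 1.28 in those with APOE3, 2.52, 4.62, 3.29, 2.47 and 2.63 with APOE4 and 3.86, 4.44, 2.23, 2.17 and 2.17 with APOE4D. The APOE2 libraries lay below all APOE4 and APOE4D libraries, while 2 APOE3 libraries, F61N and F64M, lay within the APOE2 range. The difference from APOE4 had a log2 fold change of -1.24 with an SE of 0.33 and an adjusted p of 0.0384 from edgeR, lost without any 1 of FH124, F74M, F42N, F35J, F95K, F78N, F58M, FH78 and FH66 (adjusted p from 0.0501 to 0.0949). Against APOE3 and APOE4D the log2 fold changes were -0.80 (adjusted p = 0.195) and -1.19 (adjusted p = 0.0588). DESeq2 did not call the first. The second was called by DESeq2 (adjusted p = 0.012) and by the edgeR fit of only APOE2 and APOE4D (adjusted p = 0.00275).

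Trim30a, a ubiquitin ligase that damps NF-kappa-B signalling in mice (chromosome 7, 104409025 to 104465193), was lower in APOE2 than in APOE4 and APOE4D. It was at 4.21, 3.32, 3.12, 3.49 and 4.61 CPM in APOE2, 6.11, 5.61, 5.39, 5.12 and 5.33 in APOE4 and 6.002, 5.76, 4.997, 5.11 and 4.76 in APOE4D, with no overlap. The APOE3 libraries, at 4.35, 6.11, 3.71, 5.699 and 3.07, covered the whole APOE2 range. The log2 fold changes were -0.55 (SE 0.15, adjusted p = 0.0369) against APOE4 and -0.51 (SE 0.14, adjusted p = 0.0402) against APOE4D by edgeR. The first was lost without any 1 of F74M, F42N, FH111 and the 5 APOE4 mice (adjusted p from 0.0542 to 0.103), and the second without any 1 of F74M, F42N, FH111, F12M, FH85, FH68 and F19M (adjusted p from 0.0599 to 0.117).

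Isg15 itself, the ubiquitin-like protein of the response, was at 2.74, 1.64, 1.59, 2.66 and 2.95 CPM in the APOE2 mice, 3.03, 6.604, 3.48, 5.28 and 2.74 in those with APOE3, 2.83, 4.21, 3.87, 3.39 and 3.53 with APOE4 and 4.46, 5.35, 2.74, 2.69 and 3.37 with APOE4D. Its groups overlapped, and its log2 fold change of -0.86 against APOE3 had an adjusted p of 0.0589 from edgeR, 0.0258 without F61N and 0.0207 by DESeq2. Uba7, which activates Isg15, Herc6, which ligates it in mice, and Trim25, the ligase that acts on RIG-I, had log2 fold changes of -0.38, -0.04 and -0.18 against APOE3 and -0.37, -0.25 and -0.29 against APOE4, none past the threshold by edgeR with all libraries. Without F61N, Uba7 passed against APOE3 (adjusted p = 0.0133). DESeq2 called Uba7 against APOE3 and APOE4 (adjusted p = 0.0368 and 0.0373) and Herc6 and Trim25 against APOE4 (adjusted p = 0.0317 and 0.0401), and the edgeR fit of only APOE2 and APOE4 called all 3 against APOE4 (adjusted p from 0.0168 to 0.0219).

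Parp14, an ADP-ribosyltransferase, was lower in APOE2 than in APOE3, and Dtx3l, a ubiquitin ligase that works with Parp9, was lower in APOE2 than in APOE4D. Parp14 (chromosome 16, 35831892 to 35871518) was at 5.33, 3.9, 3.697, 5.03 and 4.35 CPM in APOE2 and 5.38, 6.65, 5.34, 7.703 and 5.02 in APOE3, where the lowest APOE3 library, F64M, lay below FH124 and FH111 of APOE2 (log2 fold change of -0.43 with an SE of 0.12 and an adjusted p of 0.0394). The call was lost without any 1 of F74M, F42N, F35J, F37N and F10N (adjusted p from 0.0726 to 0.171). Dtx3l (chromosome 16, 35926515 to 35939027) was at 6.46, 5.82, 4.94, 5.86 and 5.61 CPM in APOE2 and 7.54, 7.59, 6.27, 7.195 and 6.71 in APOE4D, where FH68 lay below the APOE2 library FH124 (log2 fold change of -0.30 with an SE of 0.09 and an adjusted p of 0.0447). That call was lost without any 1 of F74M, F42N, FH111, F35J, F12M, FH85, F19M and FH51 (adjusted p from 0.0584 to 0.147), and Parp9, whose gene overlaps that of Dtx3l, was not called (-0.26, adjusted p = 0.286).

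Of the 9 other members, Ifi44 was lower in APOE2 and Xaf1 was higher. Ifi44, an interferon-induced protein that slows cell growth in human cells (chromosome 3, 151730922 to 151749910), was at 0.9895, 0.444, 0.642, 0.735 and 0.512 CPM in the APOE2 mice, 0.705, 2.05, 0.765, 1.98 and 1.05 in those with APOE3, 1.32, 2.09, 1.798, 1.42 and 2.397 with APOE4 and 1.87, 2.24, 1.14, 1.43 and 1.01 with APOE4D. The APOE2 libraries lay below all APOE4 and APOE4D libraries, and F61N and F39N of APOE3 lay within the APOE2 range. Against APOE4 the difference had a log2 fold change of -1.44 with an SE of 0.31 and an adjusted p of 0.00993 from edgeR and held under each of 19 alternatives (adjusted p from 5.04e-05 to 0.0379). Against APOE4D it was -1.20 (adjusted p = 0.0376), lost without any 1 of F74M, F42N, FH111, F35J, F12M, FH85 and F19M (adjusted p from 0.0622 to 0.108), and against APOE3 it was -0.97 (adjusted p = 0.0878, and 0.0199 without F61N). Ifi27l2a, which overlaps Ifi27, had log2 fold changes of -1.23, -1.19 and -1.20 without passing the edgeR test (adjusted p = 0.0874, 0.0993 and 0.156), though it passed against APOE3 without F61N (adjusted p = 0.0352). DESeq2 called Ifi27l2a against APOE3 and APOE4 (adjusted p = 0.0206 and 0.0233) and not against APOE4D. Ifi35, Rtp4, Sp100, Samd9l, Ifi27 and Lgals3bp were not called by edgeR with all libraries in a comparison with APOE2, with log2 fold changes from -0.68 (Rtp4) to -0.27 (Ifi35) against APOE3. Without F61N, Ifi27, Lgals3bp and Ifi35 were lower in APOE2 than in APOE3 (adjusted p = 0.0249, 0.0133 and 0.0483). Without FH111, Sp100 was lower in APOE2 in each of the comparisons (adjusted p from 0.0281 to 0.0351). DESeq2 called Ifi27, Lgals3bp and Sp100 against APOE3 (adjusted p = 0.0234, 0.0241 and 0.0332) and Ifi27, Lgals3bp and Rtp4 against APOE4 (adjusted p = 0.041, 0.0252 and 0.0219).

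Xaf1, an interferon-induced gene that promotes cell death by opposing XIAP (chromosome 11, 72301461 to 72313733), was the 1 member called higher in APOE2. It was at 21.5, 27.8, 20.4, 7.83 and 44.4 CPM in APOE2 and 7.36 to 11.5 CPM in the 15 other libraries. In 4 of the 5 APOE2 mice it was above every other library, while in FH111 it was below all but 2 of the other 15. The log2 fold changes were 1.51 (SE 0.33, adjusted p = 0.0214), 1.39 (SE 0.34, adjusted p = 0.0297) and 1.32 (SE 0.30, adjusted p = 0.0169) by edgeR. Without FH111 they were 1.74, 1.62 and 1.54 (adjusted p = 0.000319, 0.00051 and 6.1e-05). Without F35J, the highest library, they were 1.19, 1.06 and 0.98 (adjusted p = 0.0311, 0.0534 and 0.0309). The call against APOE3 was also lost without any 1 of F74M, F39N and F10N (adjusted p from 0.0552 to 0.0583), and that against APOE4 without any 1 of F74M, F42N and the 5 APOE4 mice (adjusted p from 0.053 to 0.0798). When only the groups compared were fitted, all 3 calls were lost (adjusted p = 0.101, 0.0738 and 0.136).

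A neighbour on the same chromosome, Tekt1, a component of ciliary microtubules (chromosome 11, 72344717 to 72362442), was also higher in APOE2. Its start lies 43.3 kb from that of Xaf1. It was at 4.27, 5.54, 4.78, 3.05 and 4.86 CPM in APOE2 and 2.26 to 3.81 CPM in the other 15 libraries, and its lowest APOE2 library was again FH111, the only one of the 5 within the range of the others. The log2 fold changes were 0.70 (adjusted p = 0.00401), 0.53 (adjusted p = 0.0297) and 0.81 (adjusted p = 0.000437) by edgeR. Tekt1 is not an interferon gene and was named after its values were seen, as a neighbour of a called member. Of 33 tested genes within 1 Mb of the start of Xaf1, Tekt1 was higher and Emc6 lower (-0.23) against APOE3. Against APOE4 and against APOE4D, 3 were higher, Tekt1 among them, and none was lower. Over all genes tested 1.84%, 3.29% and 1.86% were higher. Around other called members, at most 4 neighbours were higher (of 49, Oasl1 against APOE4) and at most 6 lower (of 55, Irf7 against APOE3). Whether position has a part in the level of Xaf1 was not tested.

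The rest of the pathway was read from lists of its parts. Among 23 tested genes listed as sensors and adaptors, 6 of them members, 5 were lower in APOE2 than in APOE3 (Cgas, Unc93b1, Ddx60, Ddx58 and Irf7). Ddx60 and Irf7 are members already described, and Irf7, a transcription factor, is counted again in the list of those factors below. In the list 2 genes were lower than in APOE4 and 2 than in APOE4D (Cgas and Ddx60 in both). Over all genes tested, 3.05%, 2.6% and 2.26% were lower in the same order of comparisons. No gene of the list was higher. Cgas, the enzyme that senses DNA in the cytosol and makes cyclic GMP-AMP (chromosome 9, 78430518 to 78443237), was at 0.585, 0.771, 0.421, 0.804 and 0.488 CPM in the APOE2 mice, 1.53, 1.42, 1.24, 1.13 and 1.28 in those with APOE3, 1.71, 1.31, 1.43, 1.47 and 1.37 with APOE4 and 1.36, 1.29, 1.51, 0.934 and 1.48 with APOE4D. Every APOE2 library was below every other library, and in APOE3 the libraries F37N and F10N did not stand above the rest. The log2 fold changes were -1.10 (SE 0.18, adjusted p = 0.000279), -1.24 (adjusted p = 5.41e-05) and -1.10 (adjusted p = 0.000171) by edgeR. The calls against APOE3 and APOE4 held under each of 19 alternatives, including without F37N and F10N (adjusted p = 0.0022 against APOE3), and that against APOE4D under 17 of 18, the exception being the fit without the mice whose names start with FH (adjusted p = 0.0825).

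Unc93b1, which carries the nucleic acid receptors of endosomes to their place, was at 16.6 ± 1.62 CPM in APOE2 and 21.4 ± 2 in APOE3 (log2 fold change of -0.37 with an SE of 0.07 and an adjusted p of 0.00263). Ddx58, which encodes RIG-I, was at 5.505 ± 0.779 and 7.54 ± 1.54 CPM (log2 fold change of -0.45 with an SE of 0.12 and an adjusted p of 0.0321). Without F37N and F10N neither passed the edgeR test (adjusted p = 0.0672 and 0.396). Sting1, the adaptor that answers to the product of Cgas, was at 4.17 ± 0.325 CPM in the APOE2 mice, 4.58 ± 0.895 in those with APOE3, 4.51 ± 0.407 with APOE4 and 3.803 ± 0.175 with APOE4D, and was not called (adjusted p = 0.562, 0.651 and 0.638 for the comparisons with APOE2).

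**Figure D5:**
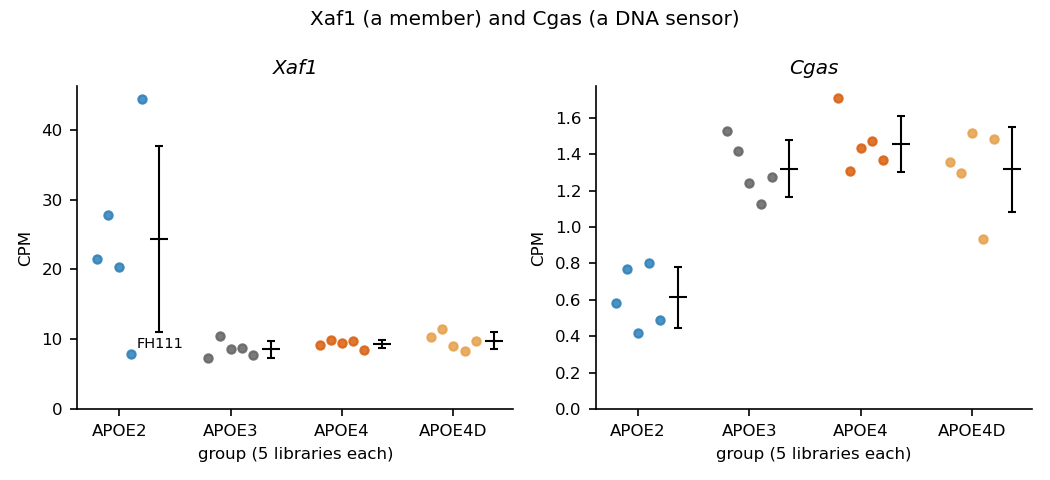
CPM of Xaf1 and Cgas in each library, by group, with bars for the mean and SD (n = 5) and axes that start at 0. Xaf1 is high in 4 of the 5 APOE2 mice and low in FH111, and Cgas is lower in all 5 APOE2 mice than in any other library.

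No gene of the interferons themselves could be tested. Of 21 genes listed, 10 had a read in any of the 20 libraries, and the most reads of a gene over the 20 libraries were 12, for Ifng, the type II interferon. Of the 9 receptor and kinase genes none was called in a comparison with APOE2, where Ifnar1 was at 40.4 ± 1.604 CPM in APOE2, 40.9 ± 1.44 in APOE3 and 41.3 ± 0.982 in APOE4. Of the 8 transcription factors of the response, 3 of them members, Irf7 was the sole call in the comparisons with APOE2. Of 10 feedback inhibitors, Usp18 was the sole call in these comparisons.

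A list of 83 other interferon-induced genes, none of them a member, gave 72 tested genes. Of these 17 were lower in APOE2 than in APOE3 and none was higher, with a median log2 fold change of -0.31. Against APOE4, 10 were lower and none was higher (median -0.16), and against APOE4D, 5 of 71 were lower and none was higher (median -0.12). Over all genes tested, 3.05% were lower in APOE2 than in APOE3, 2.6% than in APOE4 and 2.26% than in APOE4D. Without F37N and F10N the count against APOE3 was 1, and without F61N it was 24. The calls over all genes in these fits, given above, fell and rose as well. The 4 of smallest p against APOE3 were Ube2l6, the conjugating enzyme for Isg15 (-0.52, adjusted p = 0.00144), Ifi204, a DNA-binding PYHIN protein (-1.32, adjusted p = 0.00221), Ifitm2, a relative of Ifitm3 (-0.51, adjusted p = 0.00314), and Phf11d (-0.94, adjusted p = 0.00655, edgeR). Those of smallest p against APOE4 were Adar, the RNA-editing enzyme (-0.21, adjusted p = 0.000442), Ifi204 (-1.37, adjusted p = 0.00155), Gm4951 (-1.44, adjusted p = 0.00649) and Apol9a (-1.96, adjusted p = 0.00715).

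Adar had an order of groups of its own. It was at 175, 176, 173, 178 and 176 CPM in APOE2 and 163, 171, 179, 167 and 173 in APOE3, against 196, 207, 213, 203 and 201 in APOE4 and 201, 203, 204, 207 and 200 in APOE4D. The APOE2 and APOE3 libraries overlapped, and both groups lay wholly below APOE4 and APOE4D. The difference of APOE4 from APOE3 had a log2 fold change of 0.25 with an SE of 0.04 and an adjusted p of 3.96e-05 from edgeR, and that of APOE2 from APOE3 a log2 fold change of 0.04 (adjusted p = 0.563).

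Between APOE4 and APOE3 no member passed the edgeR test, where 10.8% of all genes tested were higher in APOE4 and 10.2% lower. The unadjusted p was under 0.05 in 3 members, DESeq2 called 2 (Herc6 and Ifit2, both higher in APOE4) and limma-voom 1. The median log2 fold change of the members was -0.04, with 28 of 43 negative, beside -0.01 over all genes. The 4 of smallest p were Herc6 (0.21, adjusted p = 0.0517), Ifit2 (0.21, adjusted p = 0.0573), Oas1c (-0.34, adjusted p = 0.143) and Trim30a (0.26, adjusted p = 0.238, edgeR). Herc6 was at 13.4, 13.1, 12.5, 13.9 and 14.2 CPM in APOE4 and 12.2, 11.8, 9.09, 12.6 and 12.1 in APOE3, so that F10N of APOE3 and F58M of APOE4 overlapped. Without F37N and F10N together, 7 members passed as higher in APOE4 and none as lower (Ifi44, Ifit1, Ifit2, Rtp4, Trim25, Trim30a and Usp18), and the median was 0.25. In that fit 1339 of all genes were higher in APOE4 and 1267 lower, against 2273 and 2149 with all libraries. With 1 library left out, leaving out F61N gave 2 calls (Herc6 higher and Oas2 lower), F37N 1, F10N 3, F78N 1 and F58M 1. Among the 72 other interferon-induced genes, 3 were higher and 8 lower in APOE4.

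Between APOE4D and APOE4 none of the 21041 genes passed the test (0% higher and 0% lower, edgeR). No member had an unadjusted p under 0.05, and neither DESeq2 nor limma-voom called a member. The median log2 fold change of the members was -0.02, from -0.26 (Rsad2) to 0.17 (Oasl2). The 4 of smallest p were Uba7 (-0.20, adjusted p = 0.58), Rsad2 (-0.26, adjusted p = 0.66), Trim25 (-0.12, adjusted p = 0.706) and Samd9l (-0.15, adjusted p = 0.708, edgeR). FH85 was the highest APOE4D library in 33 of the 43 members.

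Between APOE4D and APOE3 no member was called either, where 3.92% of all genes tested were higher and 4.49% lower. The unadjusted p was under 0.05 in 3 members, and neither DESeq2 nor limma-voom called any. The 4 of smallest p were Oas2 (-0.59, adjusted p = 0.124), Herc6 (0.17, adjusted p = 0.148), Ifit2 (0.15, adjusted p = 0.209) and Rsad2 (-0.38, adjusted p = 0.248, edgeR). Without F61N, Oas2 was called lower in APOE4D (adjusted p = 0.011). Without F37N and F10N, Trim30a and Usp18 were called higher (over all genes 315 were higher and 568 lower), and the median over the members went from -0.05 to 0.22.

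Marker genes of the cell types of the brain and its blood were summed in each library. The 16 microglia markers summed to 579.9 to 680.9 CPM in APOE2, 638.5 to 746.3 in APOE3, 621.7 to 697.9 in APOE4 and 603.1 to 663.2 in APOE4D, so the groups overlapped. Of these markers 1 was lower in APOE2 than in APOE3 (C1qc, -0.30), 1 than in APOE4 and 1 than in APOE4D (Gpr34 in both), with medians of -0.10, -0.06 and -0.04. The 14 endothelial markers summed to 419.2 to 527.7 CPM in APOE2 and 441.4 to 575.8 in APOE3, the highest 2 libraries being F37N and F10N. Of these 1 was lower in APOE2 than in APOE3 (Emcn, -0.32) and 2 than in APOE4 (Emcn and Kdr). The 18 markers of T, B and NK cells summed to 43.9 to 73.1 CPM in APOE2 and 47.9 to 105.6 in APOE3, with F10N highest, and to 30.6 to 38.8 in APOE4, and 1 of the 12 tested was lower in APOE2 than in APOE3 (Gzma). The 7 markers of border macrophages summed to 11.2 to 15.8 CPM in APOE2 and 14.2 to 21.9 in APOE3, where F37N and F10N were highest, with none called. The 7 red cell markers summed to 352.6 to 446.3 CPM in APOE2 and 449.2 to 702.4 in APOE3, and 2 were lower (Slc4a1 and Hba-a2). The 13 markers of pericytes, smooth muscle and fibroblasts summed to 347.8 to 449.5 CPM in APOE2 and 375.8 to 502.0 in APOE3, with F37N and F10N again the highest of APOE3. Of these Tagln was lower in APOE2 than in APOE3 (-1.02) and Pdgfra higher (0.20). The 8 ependymal markers summed to 34.4 to 45.8 CPM in APOE2, 40.1 to 48.6 in APOE3, 40.6 to 57.6 in APOE4 and 40.1 to 53.5 in APOE4D. Ccdc153 was lower in APOE2 than in each other group (-1.01, -0.94 and -0.97), and Dnah6 was lower than in APOE4 and APOE4D (-1.27 and -1.41). The 10 astrocyte markers summed to 4692 to 4940 CPM in APOE2 and 4709 to 5211 in APOE3, with none called between these groups, while Aldoc was higher in APOE2 than in APOE4 (0.18) and Gfap than in APOE4D (0.33). The 11 neuron markers summed to 8841 to 9374 CPM in APOE2 and 8441 to 9512 in APOE3, where Gad2 was higher in APOE2 (0.21) and Slc17a7 lower (-0.13). Of the 10 oligodendrocyte markers none was called in a comparison with APOE2 by edgeR, and of the 11 choroid plexus markers 2 were lower than in APOE4 (Tmem72 and Prlr) and 1 than in APOE4D (Tmem72). No list had a marker without a read in every library, and the part of these cells in the members' levels was not tested.

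The members that held an ISRE core and those that did not were also set side by side, as a description. In APOE2 against APOE3 the 15 with a core had a median log2 fold change of -0.74 and the 16 with a listed promoter and no core one of -0.30. Against APOE4 the medians were -0.62 and -0.33, and against APOE4D -0.60 and -0.21. Within both sets the values ran widely, from -1.06 (Ddx60) to -0.08 (Stat2) with a core and from -1.19 (Irf7) to 1.51 (Xaf1) without one. Of those with a core, 4 were called lower against APOE3, 4 against APOE4 and 4 against APOE4D, and these were not the same 4 genes. Of those without a core 1, 2 and 2 were called lower. The 12 members with no listed promoter, Oas2 and Usp18 among them, were not part of this count.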

How the data were processed

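Hemi-brain RNA of 20 mice labelled female, at 18 MO, was measured by single-read RNA-seq, and groups were taken from the genotype labels. The values used were the authors' raw counts, whole reads summed for each symbol. STAR 2.7.0 and featureCounts are among the tools named in the submitters' processing notes, with GRCm38 (mm10) as the genome, and no source read here states the strand setting. The authors' normalized counts and their tables of fold changes and p-values for pairs of genotypes were not used.

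In each fit a gene was tested if it exceeded 0.1 CPM in more than 40% of its libraries. TMM factors scaled the totals, and the test was the robust quasi-likelihood test of edgeR 4.0.16 (R 4.3.3). APOE2, APOE3 and APOE4 shared 1 fit of 15 libraries (21022 genes), and comparisons with APOE4D came from a fit of all 20 (21041 genes). Benjamini-Hochberg adjustment ran over all genes tested, with a threshold of 0.05. Depth was 32404258 to 51960932 reads per library, and standard errors carry both counting error and the spread between mice. The study's covariates from the reads were not analysed here. Symbols were matched to RefSeq GRCm38.p6 for positions and promoters.

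The members and the gene lists were chosen with earlier results of these data known, so counts over them are descriptions. Full values are given for members called in a comparison, for the 4 members of smallest p where none was called, for the 3 of highest mean CPM and for up to 4 called genes of each other list. Isg15, Ifitm3, Cmpk2, Sting1, Ifnar1, Bst2 and the neighbour Tekt1 were added after values were seen. The steps were tested on simulated data. Alternatives were no filter, RLE factors, DESeq2 1.42.0, limma-voom (limma 3.58.1), fits restricted to the groups in question, APOE4 joined with APOE4D, mice named FH left out, 1 surrogate variable (sva 3.50.0), removal of the trend over length and GC content (loess span 0.3) and each library left out. Leaving out F37N with F10N was added after seeing the data. Figures were drawn with matplotlib 3.10.9.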

Additional observations from a re-analysis of the deposited data

Results flagged for a closer look

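In 176 groups of 5 libraries (43 members and their mean, in 4 groups each), 7 held a library whose gap to the nearest other library was a large share of the whole range (Dixon's ratio above 0.71). Chance alone flags about 1 in 20 groups, or 8.8 of 176, so the number is no more than chance gives. In APOE4, F78N was high in Ifit1 (7.76 CPM, the next library at 5.69), FH66 was high in Rsad2 (3.55 CPM, next 2.92) and low in Parp9 (4.09 CPM, next 4.56), F95K was low in Uba7 (5.05 CPM, next 5.49) and F78N was low in Parp14 (4.77 CPM, next 5.93). In APOE2, FH111 was low in Cmpk2 (25.0 CPM, next 27.0), and in APOE3, F39N was low in Herc6 (9.09 CPM, next 11.8). The Rsad2 value of FH66 bears on a call, since Rsad2 in APOE2 against APOE4 did not pass the edgeR test without that library (adjusted p = 0.0535). The Xaf1 value of FH111 and the high APOE3 libraries F37N and F10N were not singled out by this ratio.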

How the results depend on the processing

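No member called in a comparison changed sign under an alternative, but the medians over the members turned positive for APOE4 and APOE4D against APOE3 without F37N and F10N (0.25 and 0.22). Of 23 calls of single members in the comparisons with APOE2, taken through 430 refits in all, 276 kept the call and 154 lost it. For APOE2 against APOE3, where 8 members were called, DESeq2 called 19, the fit of only the 2 groups 4, the fit without the mice whose names start with FH 5, that with 1 surrogate variable 1, and that without F37N and F10N, added after seeing the data, 1. For APOE2 against APOE4 (8 called) the counts were 22 with DESeq2, 14 with limma-voom, 26 with only the 2 groups, 19 with APOE4 and APOE4D joined and 3 without the FH mice. For APOE2 against APOE4D (7 called) they were 13 with DESeq2, 3 with no filter and 1 without the FH mice. For APOE4 against APOE3 (0 called) they were 1 with RLE factors, 2 with DESeq2, 1 with limma-voom, 2 with APOE4 and APOE4D joined and 7 without F37N and F10N. For APOE4D against APOE3 (0 called) the count was 2 without F37N and F10N. Leaving out 1 library at a time gave 3 to 24, 3 to 12, 1 to 7, 0 to 3 and 0 to 1 in the same order, and 0 to 0 for APOE4D against APOE4. Over all genes and in that order, edgeR called 1029, 1238, 867, 4422 and 1769. DESeq2 called 1472, 1577, 1079, 4881 and 2428, and limma-voom 1066, 1139, 803, 4461 and 1750. For most other refits the calls over all genes are not given here. A shift of the members cannot be told there from a shift of all genes. The cause of these changes was not tested. With the longer ISRE core the share of member genes with a listed promoter that held it was 29%, against 48.4% with the core. No paired analysis was possible because the labels give no replicate numbers that are shared between groups.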
